A study of Homo sapiens with 20 samples.

Results

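EIF4A1 and EIF4A2 encode closely related RNA helicases, and both genes carry small nucleolar RNAs (snoRNAs) inside their transcripts. Their deposited iCLIP peaks were followed in 16 libraries that mapped contacts of hnRNP A1, U2AF2 or SRSF1 with RNA. The 2 genes were found by symbol among 19362 gene IDs with at least 1 peak: EIF4A1 is ENSG00000161960 and EIF4A2 is ENSG00000156976. They were selected on their U2AF2 and SRSF1 values in these same libraries, so those values are described without a test. The hnRNP A1 libraries were not used for that choice and were tested.

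The cells are labelled TREX FLP-In 293T, a human embryonic kidney line in which a gene placed at an integration site can be switched on with tetracycline. The overexpression group carried inducible T7-tagged hnRNP A1, and the control group carried none. The labels name hygromycin for selecting the inducible lines and blasticidin with zeocin otherwise. Both groups were selected for 3 days and then held in tetracycline for 24 h, so the inducer was present in controls too, and as the labels read, a selecting drug differed along with the transgene. iCLIP, which recovers RNA crosslinked to an immunoprecipitated protein, started from nuclear extracts. It was done with 2 overexpression and 2 control libraries for hnRNP A1, and with 3 overexpression and 3 control libraries each for U2AF2 and SRSF1. Separate cultures are not named in the labels, so p-values measure the spread between these libraries, which may be technical.

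eIF4A is the helicase of the eIF4F complex: eIF4E holds the mRNA cap, eIF4G is the scaffold, and eIF4A unwinds the leader so that ribosomes can load. snoRNAs in mammals are mostly cut out of introns of host genes. Box C/D snoRNAs (SNORD) guide 2'-O-methylation of ribosomal RNA, and box H/ACA snoRNAs (SNORA) guide pseudouridylation. hnRNP A1 is an RNA-binding repressor of splicing, U2AF2 contacts pyrimidine-rich stretches that precede exons, and SRSF1, an SR protein, contacts enhancer sequences within exons.

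The name of the pair as snoRNA hosts was checked in GENCODE v29 (GRCh38), which places SNORA48, SNORD10 and SNORA67 within EIF4A1 on its strand, and SNORD2, SNORA63B, SNORA81, SNORA63 and SNORA4 within EIF4A2. The deposited peaks listed under SNORD10 were found in 16 libraries, SNORD2 in 14, SNORA48 in 12, SNORA81 in 7, SNORA63 in 3 and SNORA63B in 1. The 4 sequences below, from GENCODE v29, are those of the snoRNAs that overlapped the peaks carrying most snoRNA-listed reads. In SNORD10 and SNORD2 the capitals mark the first TGATG, the core of box C, and the last CTGA, which is box D. In SNORA48 they mark the ACA that stands 3 bases before the end. SNORA81 has no ACA at that place and is shown without capitals.
SNORD2: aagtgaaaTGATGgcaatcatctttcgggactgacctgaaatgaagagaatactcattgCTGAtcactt
SNORA81: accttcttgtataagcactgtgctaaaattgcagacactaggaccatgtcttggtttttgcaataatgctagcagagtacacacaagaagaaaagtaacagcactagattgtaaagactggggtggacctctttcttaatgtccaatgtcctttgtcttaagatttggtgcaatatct
SNORA48: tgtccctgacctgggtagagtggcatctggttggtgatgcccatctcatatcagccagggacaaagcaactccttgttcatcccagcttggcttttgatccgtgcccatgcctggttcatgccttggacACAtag
SNORD10: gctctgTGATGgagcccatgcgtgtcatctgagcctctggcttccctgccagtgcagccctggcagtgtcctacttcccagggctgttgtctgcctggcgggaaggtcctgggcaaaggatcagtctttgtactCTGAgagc
Both letter strings, searched on the strand of the snoRNA, occur in 86.3% of the 313 SNORD transcripts of that annotation, and the ACA stands 3 bases before the end in 66.2% of its 237 SNORA and SCARNA transcripts. SNORD10 is long for a box C/D snoRNA at 142 nt, against 69 nt for SNORD2.

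Depth differed between conditions, and with it the smallest signal that could be listed. Reads in peaks came to 549365 and 575471 in the hnRNP A1 overexpression libraries, against 2973275 and 2508821 in controls. They came to between 2317615 and 3657197 in U2AF2 overexpression libraries, against 702563 to 1158060 in controls, and to between 175293 and 329448 in SRSF1 overexpression libraries, against 125082 to 173766 in controls. In 15 libraries no listed peak held fewer than 6 reads. Replicate 3 of U2AF2 overexpression went down to 3 and used versioned gene IDs. All values are reads in deposited peaks, divided by a size factor per library (normalised reads), and a gene or site without a listed peak stands at 0. On HNRNPA1 itself, hnRNP A1 iCLIP gave 540.9 and 673.1 normalised reads with overexpression and 522.4 and 524.5 in controls, and such contacts cannot check the amount of the tagged protein. Of 5 markers of the line, CDH2 had peaks in 15 libraries and VIM in 14, PAX2 in 3, KRT8 in 1 and KRT18 in 0. Of 9 markers of other cell types, LYZ had peaks in 13 libraries and the other 8 were at 0. In U2AF2 iCLIP the summed level of these 9 was 163.2 to 174.8 reads per 1000000 reads in peaks with overexpression and 19.9 to 44.7 in controls. That of the 5 markers of the line was 34.1 to 64.5 with overexpression and 239.1 to 261.6 in controls. The part of either in the U2AF2 results was not tested.

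EIF4A2 carried far less U2AF2 signal and more SRSF1 signal with overexpression. U2AF2 iCLIP gave 18.4, 65.5 and 31.2 normalised reads on EIF4A2 in overexpression libraries, against 1749, 1872 and 1679 in controls. The highest overexpression library thus lay far under the lowest control, and the fitted log2 change was -5.67 ± 0.44 (SE, n = 3 per condition). Depth ran the other way: 43, 129 and 100 reads were counted on EIF4A2 in the deeper overexpression libraries, against 605, 707 and 989 in the shallower controls. RNA levels were not analysed here, so fewer contacts per RNA, less RNA and fewer cells with that RNA cannot be told apart. Without overexpression replicate 3, the library listed down to 3 reads, the change was -5.60.

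SRSF1 iCLIP gave 497.6, 485.2 and 438.6 normalised reads on EIF4A2 in overexpression libraries, against 145.1, 129.8 and 230.4 in controls. The groups did not overlap, and the log2 change was 1.53 ± 0.25 (SE, n = 3 per condition). The number of peaks did not follow the reads: EIF4A2 had 3, 5 and 3 SRSF1 peaks with overexpression and 8, 4 and 9 in controls, a log2 change in normalised peak number of -0.90.

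On EIF4A1 the U2AF2 difference had the same sign and was smaller. It held 119.7, 132.1 and 103.5 normalised U2AF2 reads in overexpression libraries, against 641.7, 616.8 and 550.1 in controls, without overlap (log2 change -2.34 ± 0.14, SE, n = 3 per condition). The unscaled reads were close, at 280, 260 and 332 with overexpression and 222, 233 and 324 in controls, so this difference rests on the scaling for depth, and with total reads as the scale it was -1.54. The median of all tested genes was 0.76 with size factors and 1.49 with total reads, and relative to that median EIF4A1 stood at -3.10 and -3.03, and EIF4A2 at -6.43 and -6.37. In the 6829 genes with a peak in every U2AF2 library, which include both members, the median was 0.02. Relative to that median EIF4A1 stood at -2.365 and EIF4A2 at -5.695. Without overexpression replicate 3 the EIF4A1 change was -2.24. Over all 13007 genes tested for U2AF2, EIF4A2 had the change with rank 77 from the lowest and EIF4A1 rank 1314.

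SRSF1 signal on EIF4A1 was 380.3, 332.9 and 364.1 normalised reads in overexpression libraries, against 176.0, 412.7 and 235.8 in controls. The groups overlapped because control replicate 2 exceeded every overexpression library (log2 change 0.47 ± 0.32, SE, n = 3 per condition). Without that control library the change was 0.78, and without control replicate 1 it was 0.19. After quantile normalization it was 0.02.

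**Figure D1:**
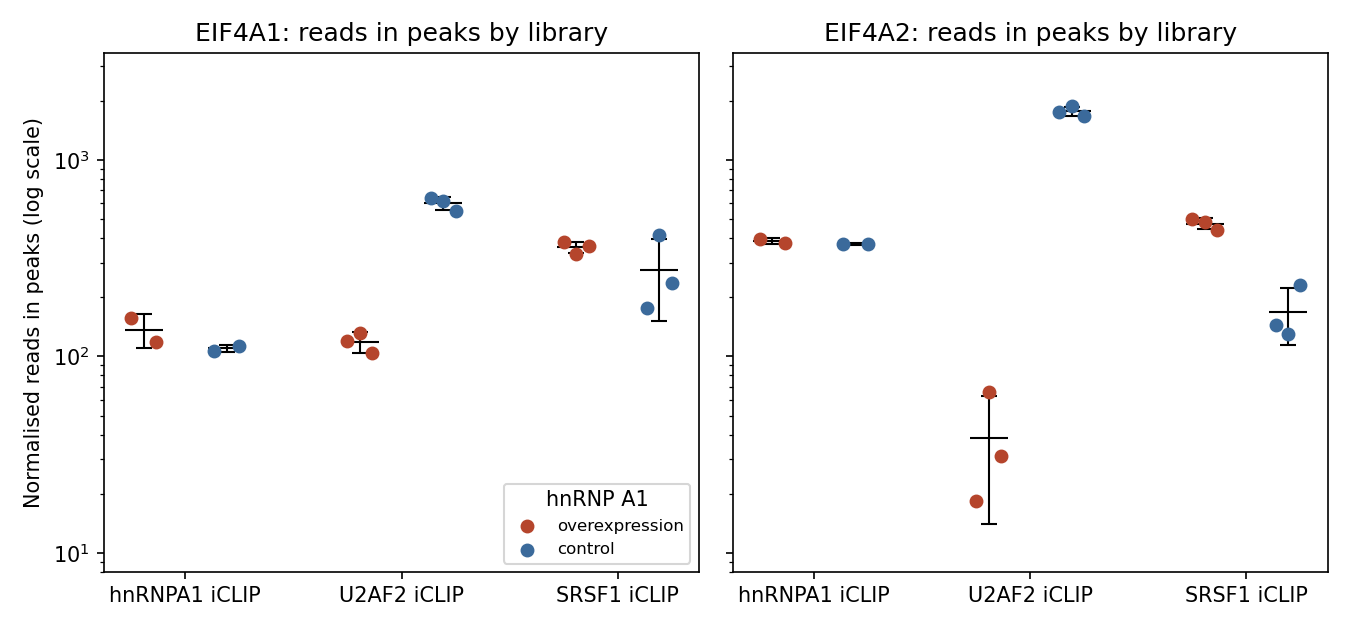
Normalised reads in peaks (log scale) on EIF4A1, left, and EIF4A2, right, in hnRNP A1, U2AF2 and SRSF1 iCLIP; points are libraries, overexpression in red and control in blue, and bars are the mean ± SD of 2 or 3 libraries. On EIF4A2 the U2AF2 overexpression libraries lie at 18.4 to 65.5 and the controls at 1679 to 1872, whereas the SRSF1 overexpression libraries lie above their controls.

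hnRNP A1 contacts, the comparison that played no part in choosing the genes, did not pass the test on either. EIF4A1 held 155.9 and 118.1 normalised hnRNP A1 reads with overexpression and 106.8 and 113.0 in controls, and EIF4A2 held 396.9 and 378.9 with overexpression and 371.1 and 375.0 in controls. Both overexpression libraries lay above both controls on each gene, by little. The log2 change was 0.30 ± 0.21 on EIF4A1 (SE, n = 2 per condition, 95% interval -0.34 to 0.95, adjusted p = 0.346, limma with Benjamini-Hochberg adjustment over all genes). On EIF4A2 it was 0.06 ± 0.09 (95% interval -0.21 to 0.33, adjusted p = 0.654, the same limma fit). So 0 of the 2 genes were called, where 38.4% of the 12461 tested genes were called, 4254 lower and 537 higher. The median change over all genes was -1.62, and 0.01 in the 5738 genes that had peaks in all 4 hnRNP A1 libraries. Both members are among these 5738 genes, which are therefore the closer comparison. Tested within that set, 1023 genes were called, 545 higher and 478 lower, and neither member was called.

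With the minimum per peak raised in proportion to each library's depth, a setting chosen after seeing the data, the hnRNP A1 change was -0.27 on EIF4A1 (adjusted p = 0.524, limma) and -0.75 on EIF4A2, which then passed (adjusted p = 0.0146, limma). Under that setting 2898 of 6905 tested genes passed, 2007 higher and 891 lower, and the median change was 0.40. Over all alternatives the adjusted p by limma ran from 0.118 to 0.955 for EIF4A1 and from 0.0146 to 1 for EIF4A2.

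The ratio of the paralogs within a library does not depend on any scaling between libraries. Per kb of annotated gene (6696 nt for EIF4A2 and 6300 nt for EIF4A1), U2AF2 reads on EIF4A2 were 0.144, 0.467 and 0.283 times those on EIF4A1 in overexpression libraries, against 2.56, 2.86 and 2.87 times in controls. For SRSF1 the ratio was 1.23, 1.37 and 1.13 with overexpression and 0.776, 0.296 and 0.919 in controls. For hnRNP A1 it was 2.40 and 3.02 with overexpression and 3.27 and 3.12 in controls. In U2AF2 iCLIP the larger signal per kb was thus on EIF4A1 with overexpression and on EIF4A2 in controls. In SRSF1 iCLIP it was on EIF4A2 with overexpression and on EIF4A1 in controls, and conditions overlapped for neither protein. The hnRNP A1 ratios stayed above 2 in all 4 libraries, and both overexpression libraries lay under both controls.

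**Figure D2:**
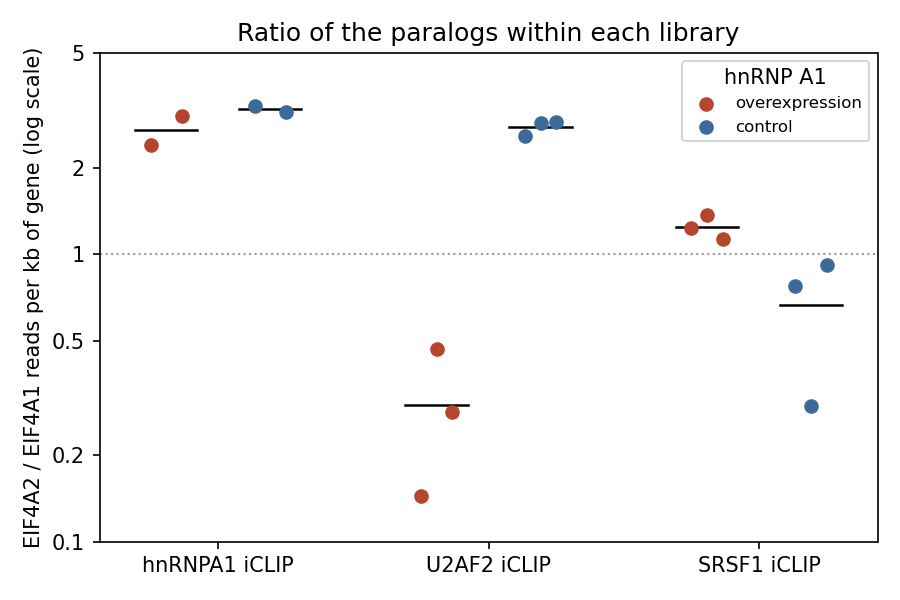
Ratio of EIF4A2 to EIF4A1 reads in peaks per kb of gene (log scale) in each library, overexpression in red and control in blue; horizontal lines are group means and the dotted line marks a ratio of 1. U2AF2 overexpression libraries lie at 0.144 to 0.467 and their controls at 2.56 to 2.87, and SRSF1 conditions separate in the opposite direction.

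Within EIF4A2, all on the plus strand of hg19, peaks spanned chr3:186502015-186507493 and merged into 25 sites over the 16 libraries, 8 of them seen in 1 library. The site at chr3:186502584-186502654, where SNORD2 is listed, was present in every library. There SRSF1 iCLIP counted 359, 516 and 465 reads with overexpression, against 63, 54 and 94 in controls. In normalised reads this was 393.5, 330.3 and 349.8 with overexpression and 59.0, 89.9 and 101.7 in controls. U2AF2 counted 20, 24 and 21 reads there with overexpression and 114, 122 and 134 in controls. These became 8.55, 12.2 and 6.55 normalised reads with overexpression and 329.5, 323.0 and 227.5 in controls. Conditions did not overlap for either protein, and they differed in opposite directions. hnRNP A1 gave 63.8 and 98.1 normalised reads there with overexpression and 82.9 and 84.5 in controls, which overlapped.

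The SNORA81 and SNORA63 sites of EIF4A2, both of the H/ACA kind, had the same pattern at lower depth. At chr3:186504585-186504646, listed under SNORA81, SRSF1 iCLIP counted 38, 62 and 42 reads with overexpression and 12, 0 and 0 in controls, and U2AF2 counted 0, 0 and 8 with overexpression and 27, 25 and 42 in controls. At chr3:186505164-186505231, listed under SNORA63, SRSF1 counted 57, 147 and 76 reads with overexpression and 0, 7 and 21 in controls, and U2AF2 counted 0, 0 and 3 with overexpression and 33, 39 and 41 in controls. In the U2AF2 overexpression libraries a peak of the smallest listed size equals 2.57, 3.05 and 0.94 normalised reads, so a signal of control size, at least 66.2 normalised reads at these sites, would have been listed. The SNORA63B site, chr3:186504210-186504240, had no SRSF1 reads in any library; U2AF2 gave 0, 3.05 and 0 normalised reads there with overexpression, from 6 reads in replicate 2, and 37.6 in control replicate 1, from 13 reads; control replicate 2 had 17 reads and control replicate 3 had 0. In the SRSF1 controls the smallest listed peak equals 5.62, 9.99 and 6.49 normalised reads.

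U2AF2 signal over the rest of EIF4A2 was also lower. The broadest control region, chr3:186506154-186506677, held 0, 17 and 11 U2AF2 reads with overexpression and 168, 205 and 241 in controls, while hnRNP A1 kept 99.2 and 82.5 normalised reads there with overexpression and 77.0 and 75.4 in controls. A site at chr3:186503264-186503316 was listed in the U2AF2 overexpression libraries, with 15, 15 and 19 reads, and in none of the others. Its 6.41, 7.62 and 5.92 normalised reads lie below the smallest peak that the U2AF2 controls could list, which equals 10.2 to 17.3 normalised reads, so its absence there was not detectable at this depth. Of all EIF4A2 sites seen with SRSF1, 4 were in both conditions, 0 with overexpression alone and 7 in controls alone. For U2AF2 the counts were 9, 4 and 6, and for hnRNP A1 7, 0 and 5. The 4 U2AF2 sites listed with overexpression alone averaged 0.31 to 6.65 normalised reads, under the smallest peak its controls could list. The 5 hnRNP A1 sites listed in controls alone averaged 2.49 to 11.3, each from 1 control library with the other at 0. The smallest listed peak of the hnRNP A1 overexpression libraries equals 14.2 and 13.4 normalised reads. At chr3:186502871-186502966 the 50 reads of control replicate 2 lay above both sizes once normalised. The 35 reads of control replicate 1 at the SNORA63 site lay between them.

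**Figure D3:**
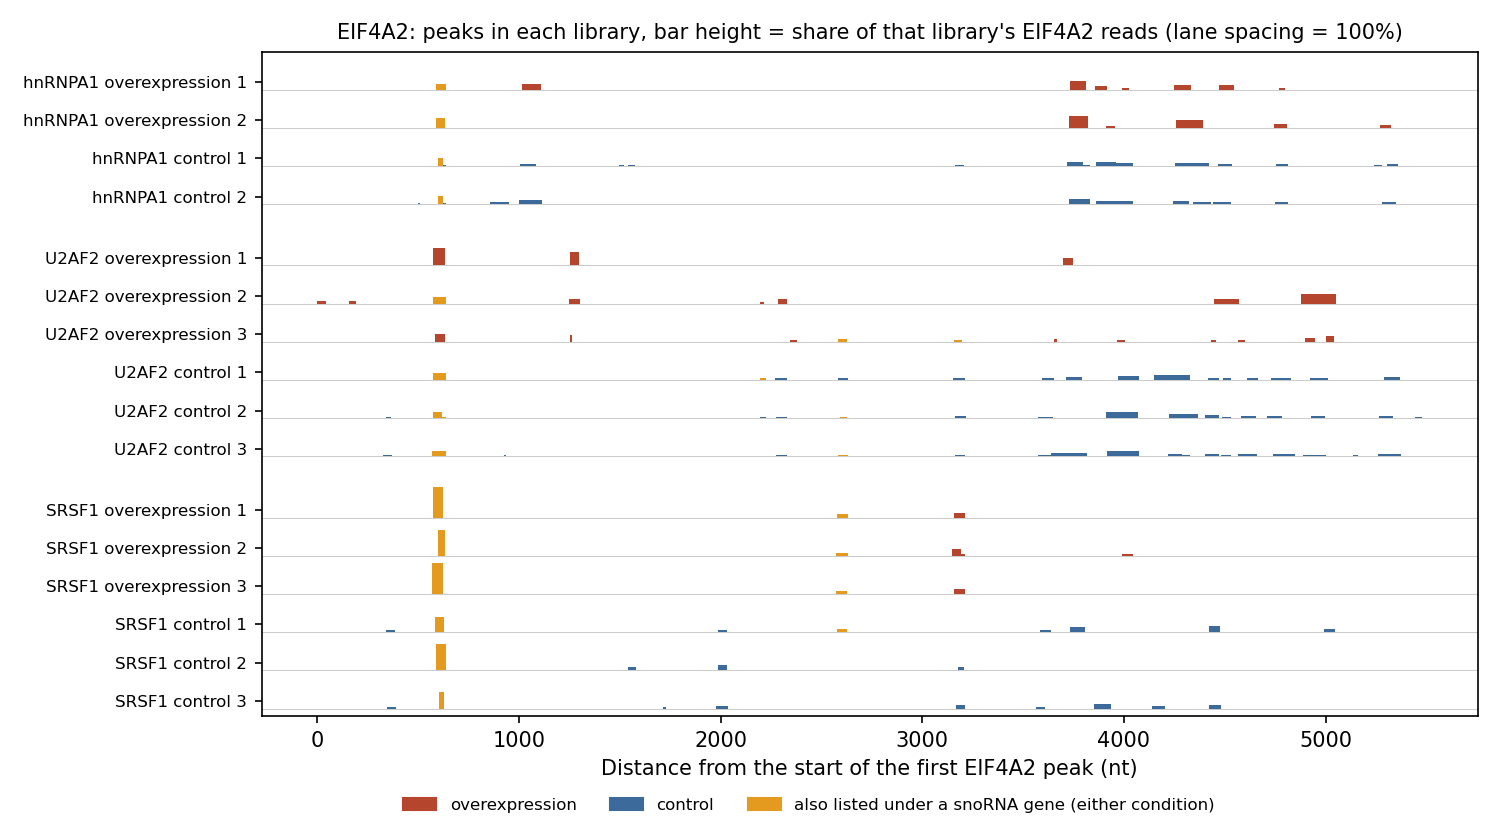
Position of each EIF4A2 peak (distance in nt from the first peak) in the 16 libraries; bar height is the share of that library's EIF4A2 reads, with bars under 4% drawn at 4%, red for overexpression, blue for control and orange where the same library lists a snoRNA gene at the interval. SRSF1 overexpression libraries keep 3 to 5 peaks, nearly all at the snoRNA sites, and U2AF2 controls have a broad block of peaks in the far part of the gene that is sparse with overexpression.

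EIF4A1 peaks spanned chr17:7476157-7482226 (hg19, plus strand) and merged into 29 sites, 14 of them seen in 1 library. At chr17:7478091-7478182, where SNORA48 is listed, U2AF2 counted 0, 0 and 0 reads with overexpression, against 65, 61 and 91 in controls (187.9, 161.5 and 154.5 normalised reads). SRSF1 counted 99, 161 and 146 reads there with overexpression, against 40, 35 and 37 in controls. In normalised reads this was 108.5, 103.1 and 109.8 with overexpression and 37.4, 58.2 and 40.0 in controls. No U2AF2 overexpression library therefore listed an EIF4A1 peak at the SNORA48 site, although replicate 3 listed 1 peak of 5 reads (1.56 normalised) there under SNORA48 itself. SRSF1 signal at the site was higher in each overexpression library than in any control.

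At chr17:7480182-7480284, where SNORD10 is listed in every library, U2AF2 gave 14.97, 16.76 and 11.85 normalised reads with overexpression and 237.0, 161.5 and 120.5 in controls. SRSF1 gave 74.5, 50.6 and 71.5 there with overexpression and 26.2, 44.9 and 47.6 in controls, and hnRNP A1 gave 21.3 and 24.5 with overexpression and 23.1 and 21.7 in controls. The U2AF2 and SRSF1 groups did not overlap, and the hnRNP A1 groups did. A further interval, chr17:7481309-7481419, is listed in 13 libraries under ENSG00000207152, for which the name tables used here give no symbol. SRSF1 gave 155.6, 155.6 and 149.0 normalised reads there with overexpression, against 38.4, 46.6 and 59.5 in controls, and U2AF2 gave 26.1, 27.4 and 18.7 with overexpression, against 98.28, 97.95 and 45.84 in controls. It thus moved as the named snoRNA sites did. SNORA67, which GENCODE v29 places after SNORD10 in EIF4A1, had peaks under its own ID in 0 libraries. Whether ENSG00000207152 denotes SNORA67 was not checked.

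Other EIF4A1 sites behaved differently. U2AF2 reads at chr17:7479432-7479498, where no snoRNA is listed, were 57, 62 and 93 with overexpression and 0, 15 and 19 in controls. They made up 24.1% ± 3.8 of the U2AF2 reads of EIF4A1 with overexpression and 4.1% ± 3.6 in controls (SD, n = 3 each). At the far end of the gene, chr17:7481966-7482034, U2AF2 held 27.6% ± 2.0 of them with overexpression and 10.7% ± 2.7 in controls, and SRSF1 held 9.1% ± 1.9 of its EIF4A1 reads with overexpression and 26.0% ± 3.2 in controls (SD, n = 3 each). In normalised reads the first of these sites overlapped between U2AF2 conditions, at 24.4 to 31.5 with overexpression and 0 to 39.7 in controls, so a larger share went with a similar signal. At the far-end site the larger share went with a lower signal: U2AF2 gave 33.8, 33.5 and 30.2 normalised reads with overexpression and 54.9, 84.7 and 54.3 in controls, without overlap. The interval chr17:7479504-7479599 was listed for hnRNP A1 alone among the 3 proteins, with 36 and 28 reads in overexpression libraries and 49 and 56 in the deeper controls. In normalised reads this was 85.0 and 62.4 with overexpression and 19.2 and 25.3 in controls, without overlap, or 54.5% and 52.8% of the hnRNP A1 reads of EIF4A1 with overexpression and 17.9% and 22.4% in controls.

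**Figure D4:**
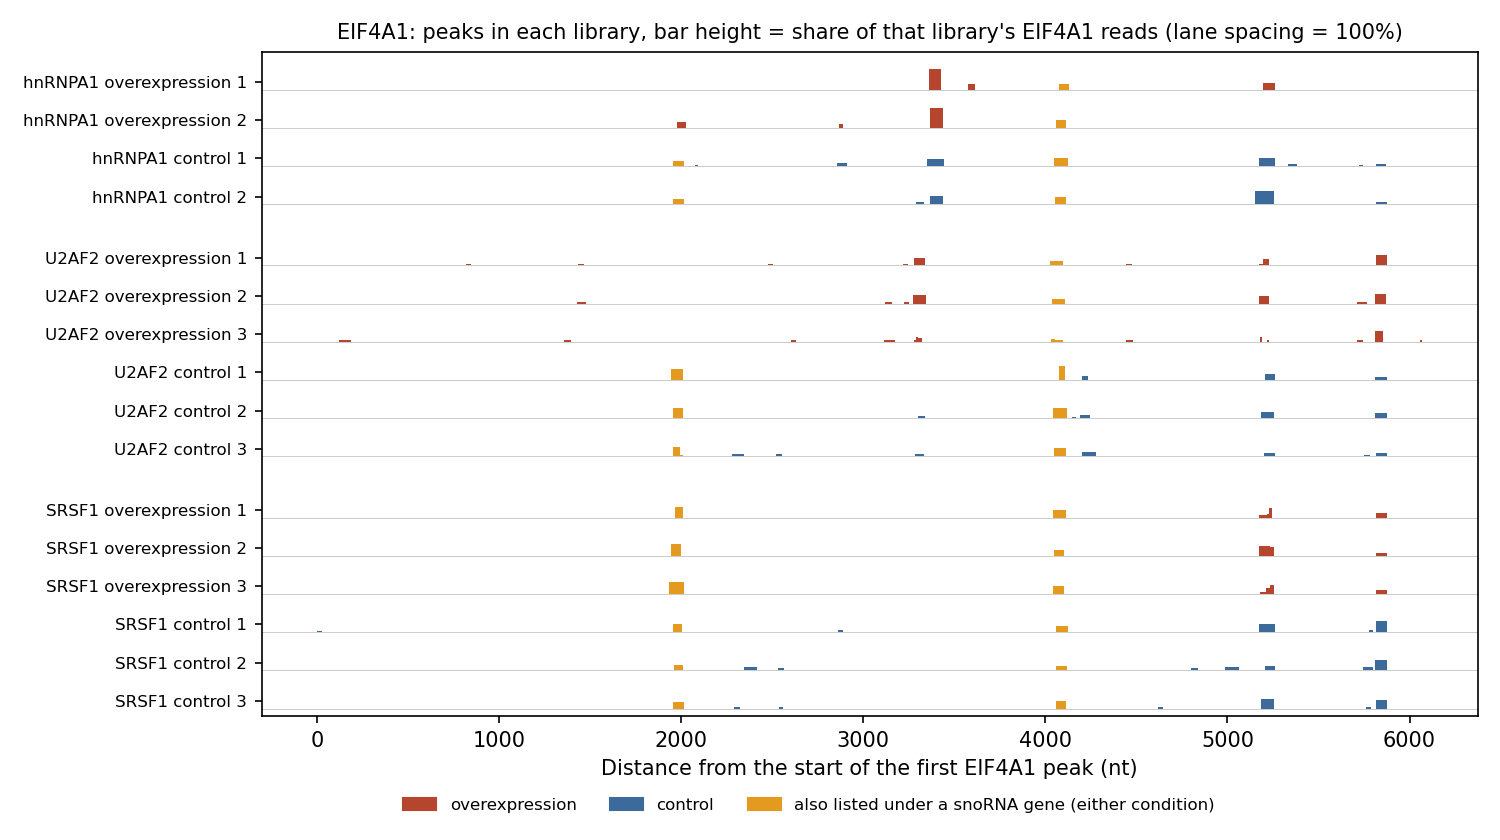
Position of each EIF4A1 peak (distance in nt from the first peak) in the 16 libraries; bar height is the share of that library's EIF4A1 reads, with bars under 4% drawn at 4%, red for overexpression, blue for control and orange where the same library lists a snoRNA gene at the interval. The U2AF2 overexpression libraries have no bar at the SNORA48 site and their tallest bars near the far end of the gene, and the SRSF1 overexpression libraries have 5 or 6 peaks each.

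Intervals that overlapped one listed under a snoRNA gene in the same library, by at least 1 nt on the same strand, were then summed apart from the rest. On EIF4A2 they held 87.4%, 76.3% and 87.0% of the SRSF1 reads with overexpression (mean 83.6% ± 6.3), against 48.4%, 69.2% and 44.1% in controls (53.9% ± 13.4, SD, n = 3 each). In normalised reads the snoRNA-listed intervals gave 395.5 ± 34.8 with overexpression and 87.2 ± 15.9 in controls, and the other intervals 78.3 ± 32.1 with overexpression and 81.2 ± 44.7 in controls. Without the snoRNA-listed intervals the log2 change in SRSF1 signal on EIF4A2 was 0.08 ± 0.49 (SE, n = 3 per condition). The SNORA63 site is outside this sum in every library but U2AF2 overexpression replicate 3, the library listed down to 3 reads. SNORA63 was listed in 3 libraries, and only there did its interval (10 reads) overlap an EIF4A2 peak of the same library (3 reads). SRSF1 signal at the SNORA63 site was 62.5, 94.1 and 57.2 normalised reads with overexpression and 0, 11.7 and 22.7 in controls. With an interval counted when any of the 16 libraries listed a snoRNA there, the share was 98.5% ± 2.5 with overexpression and 60.2% ± 15.8 in controls. The intervals outside snoRNA sites then held 0, 21.1 and 0 normalised SRSF1 reads with overexpression and 74.9, 28.3 and 106.0 in controls. By that count SRSF1 signal on EIF4A2 was higher at the snoRNA sites and lower elsewhere, and the near-equal sums above combine the 2 directions. The SNORA63 site makes the difference between the 2 counts. With it among the other intervals, as in the same-library count, these held 62.5, 115.2 and 57.2 normalised SRSF1 reads with overexpression. The controls then held 74.9, 39.9 and 128.7, so the conditions overlapped.

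On EIF4A1 the SRSF1 share was 48.1%, 46.2% and 49.8% with overexpression and 36.2%, 25.0% and 37.2% in controls. Counting the interval of ENSG00000207152 as well, it was 90.1% ± 2.5 with overexpression and 48.5% ± 20.4 in controls (SD, n = 3 each). The snoRNA-listed intervals summed to 172.7 ± 16.5 normalised reads with overexpression and 84.8 ± 19.9 in controls. The other intervals summed to 186.4 ± 9.6 with overexpression and 190.0 ± 105.1 in controls, where replicate 2 held 309.5. Within that sum the sites differed in both directions: the interval of ENSG00000207152 was higher with overexpression, while chr17:7481966-7482034 gave 41.6, 23.7 and 33.8 normalised SRSF1 reads with overexpression and 51.5, 106.5 and 54.1 in controls.

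For U2AF2 both kinds of interval were lower with overexpression. On EIF4A2 snoRNA-listed intervals gave 5.2 ± 6.3 normalised reads with overexpression and 351.7 ± 47.1 in controls, and other intervals 33.2 ± 18.1 with overexpression and 1415 ± 58.6 in controls (SD, n = 3 each). At the SNORD2 site overexpression replicates 1 and 3 had 20 and 21 reads that were not counted, since neither library listed SNORD2. The snoRNA-listed share of EIF4A2 U2AF2 reads was 9.9% ± 9.4 with overexpression and 19.9% ± 1.8 in controls. With a snoRNA listed in any library the order reversed, at 33.9% ± 11.7 with overexpression and 27.2% ± 4.7 in controls. On EIF4A1 snoRNA-listed intervals gave 14.5 ± 2.5 with overexpression and 341.0 ± 76.5 in controls, and other intervals 103.9 ± 11.8 with overexpression and 261.9 ± 40.2 in controls. The snoRNA-listed share of EIF4A1 U2AF2 reads was accordingly 12.2% ± 0.7 with overexpression and 56.2% ± 8.8 in controls, and without those intervals the log2 change on EIF4A1 was -1.34, against -5.52 on EIF4A2. For hnRNP A1 the share on EIF4A1 was 13.6% and 20.8% with overexpression and 34.8% and 33.2% in controls, and on EIF4A2 16.1% and 25.9% with overexpression and 21.4% and 21.7% in controls. With a snoRNA listed in any library, the EIF4A1 shares with overexpression were 13.6% and 35.8%, which overlapped the controls, still at 34.8% and 33.2%. The 95% Wilson intervals of single shares were 6.9 to 21.5 percentage points wide on EIF4A1 and 4.8 to 20.1 on EIF4A2, for counting error only.

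**Figure D5:**
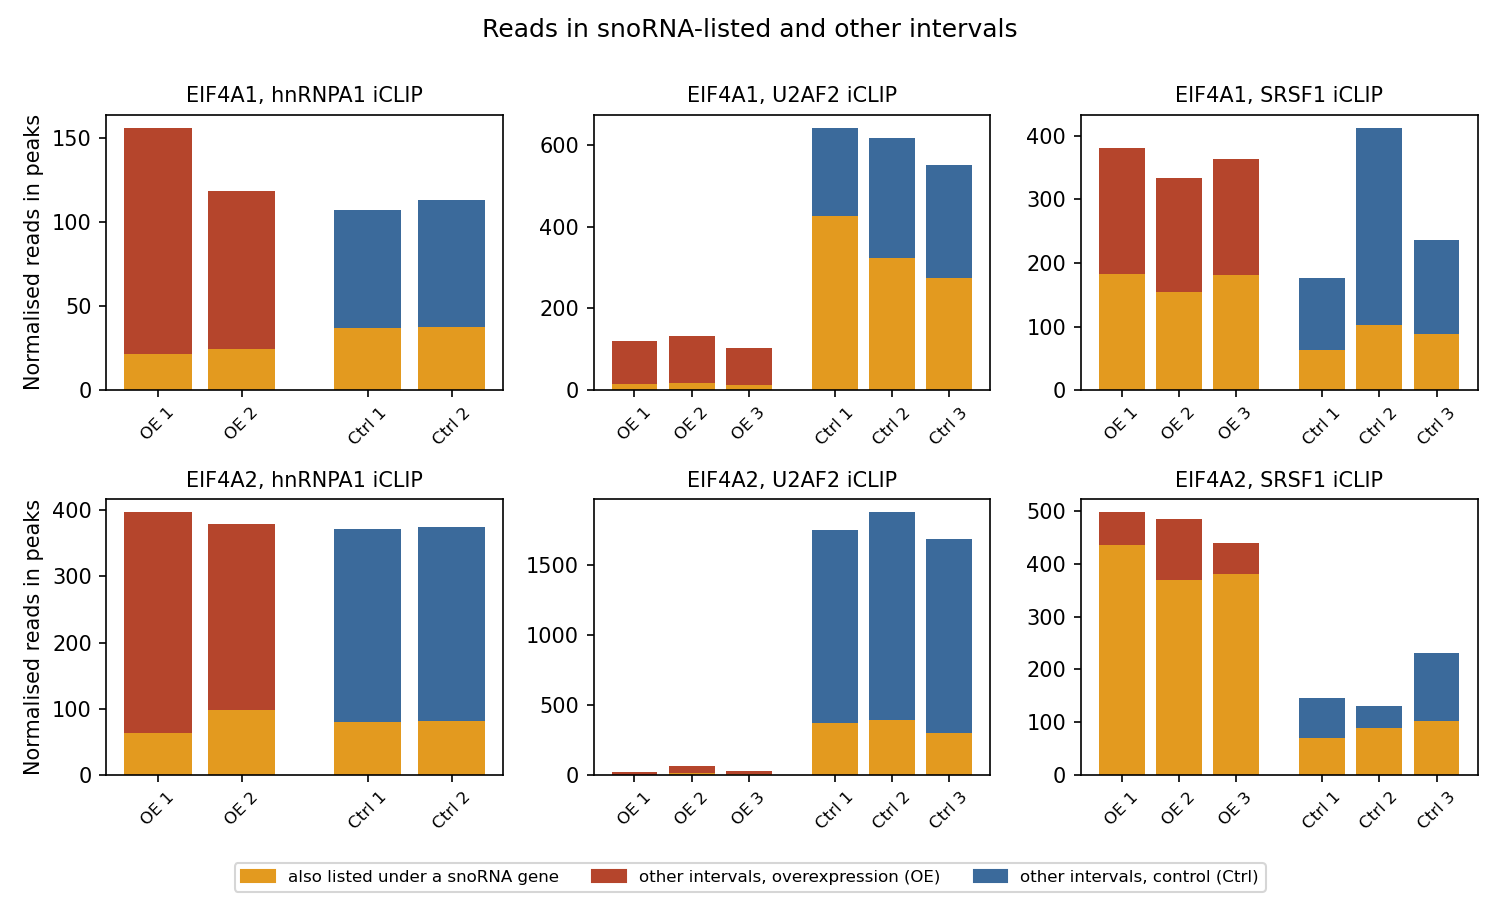
Normalised reads in peaks on EIF4A1 (upper row) and EIF4A2 (lower row) in each overexpression (OE) and control (Ctrl) library, split into intervals also listed under a snoRNA gene (orange) and other intervals (red or blue); each panel has its own axis from 0. The SRSF1 difference on EIF4A2 is largest in the orange part, at 395.5 on average with overexpression and 87.2 in controls, while for U2AF2 both parts are low with overexpression.

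Reads at these intervals can belong to the host pre-mRNA or to the snoRNA, and the peaks do not tell them apart. No snoRNA interval had exactly the same ends as a host interval. In U2AF2 overexpression replicate 3 the EIF4A1 intervals were also listed under ENSG00000264772 and ENSG00000265500, unnamed IDs that span the same region. No peak was listed under any of the 13 named EIF4A1 pseudogenes or the 5 named EIF4A2 pseudogenes.

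Other genes of cap-dependent initiation and other snoRNA hosts were counted from lists that were chosen with earlier results of these data known. Of 19 genes of the eIF4F complex and related factors, here called partners, 18 were measured for U2AF2. Of these 8 fell, 1 rose and the median was -1.39. Over all tested genes 43.5% were called (16% lower and 27.5% higher) and the median was 0.76. DDX3X, a DEAD-box helicase, fell by 3.94 (SE 0.15, adjusted p = 0.000141, limma), and MKNK2, an eIF4E kinase, fell by 2.95 (SE 0.65, adjusted p = 0.0133, limma). EIF4G2, an eIF4G-like scaffold, fell by 2.81 (SE 0.16, adjusted p = 0.000205, limma). Of 36 other protein-coding snoRNA hosts, 35 were measured for U2AF2, and 31 fell and 0 rose, with a median of -2.81. EIF4G1 and EIF4G2 are on both lists and count among the genes that fell in each. With the number of peaks per gene 2 partners and 14 hosts fell, and without snoRNA-listed intervals 6 partners and 21 hosts did. With total reads as the scale 5 partners rose and 7 fell. Where a peak was required in every U2AF2 library, 9 of 14 partners and 32 of 34 hosts fell and 0 rose. Of the 6829 genes tested there, 2096 fell and 1952 rose. MKNK2 missed the threshold whichever of the overexpression replicates was left out and with the replicate block, and EIF4G2 missed it by the number of peaks and without snoRNA-listed intervals. Set among these 35 and each other, EIF4A2 had the second-lowest change and EIF4A1 ranked 15 of 37 from the highest.

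For SRSF1, 12 of the 19 partners were measured: 0 rose and MKNK1, another eIF4E kinase, fell by 5.23 (SE 0.80, adjusted p = 0.0256, limma), with a median of -0.34. Of the 35 hosts measured for SRSF1, 6 rose and 0 fell, where 8.32% of 5598 tested genes were called (6.38% higher), and the median was 0.62 against 0.36 over all genes. With the replicate block, or without overexpression replicate 2 or 3, 0 of the hosts passed; 1 rose without overexpression replicate 1 or control replicate 3, and 9 rose without control replicate 2. MKNK1 passed in none of the fits that left out a library, nor with the block, nor where a peak was required in every SRSF1 library. Without snoRNA-listed intervals 1 host rose, 1 fell and the host median was -0.64, and by the number of peaks 1 rose and the host median was -0.24. EIF4A2 ranked 6 of 37 and EIF4A1 24 of 37 from the highest. For hnRNP A1, 2 of 17 partners rose and 2 fell, among them MKNK1, which fell by 3.40 (SE 0.31, adjusted p = 0.00543, limma), EIF4G2, which rose by 0.96 (SE 0.13, adjusted p = 0.0144, limma), and EIF4B, a helper of the helicase, which rose by 0.55 (SE 0.10, adjusted p = 0.033, limma). The partner median was 0.15 and the host median, with 2 hosts rising and 2 falling of 35, was 0.30. Over all tested genes 34.1% were called lower and 4.31% higher. Where a peak was required in every hnRNP A1 library, 1 of 12 partners rose and 1 fell, and 2 of 34 hosts rose and 2 fell. Of the 5738 genes tested there, 545 rose and 478 fell. Whether MKNK1 reads in controls exceeded the smallest listed peak of the overexpression libraries was not checked. After quantile normalization, or without either control library, 0 partners and 0 hosts passed for hnRNP A1. Without overexpression replicate 1, 3 partners rose and 3 fell and 8 hosts rose and 3 fell; without replicate 2, 4 partners rose and 4 fell and 5 hosts rose and 5 fell. EIF4B missed the threshold with total reads as the scale, where the partner median was -0.02.

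Genes with the most similar profile over the 16 libraries were ranked among 5298 genes by Pearson correlation of log2 reads in peaks scaled to the library total, a description in which libraries of 1 protein share their depth and target. Closest to EIF4A2 were TAF1D (0.975), GAS5 (0.974), ENSG00000206874 (0.969), SNORD2 (0.969) and SNORD93 (0.964). Intervals listed under SNORD2 overlap those listed under EIF4A2. Among the closest to EIF4A1 were DDX39B and the overlapping readthrough gene ATP6V1G2-DDX39B (0.984 each), RACK1 (0.980) and HSPA9 (0.971). The paralogs correlated with each other at 0.764, which put EIF4A2 at rank 217 in the EIF4A1 order and EIF4A1 at rank 170 in the EIF4A2 order.

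Polyadenylated RNA had been sequenced from 2 overexpression and 2 control samples, whose titles name HEK293 and whose cell line label is again 293T. The authors' deposited table of skipped exons lists 251 events, with largest absolute differences between 0.34 and 0.69 as a fraction of inclusion, and 0 of them overlap the span of the EIF4A1 or EIF4A2 peaks. Its events were already chosen by size, so smaller changes in these genes would not be listed.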

How the data were processed

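Per the file headers, iCLIP reads were mapped to hg19 with TopHat and peaks were called in each library with CLIPper; the submitters' processing notes also name Bowtie2, and versions are not given in the sources used here. Each deposited peak carries a p-value and a read count. The authors' exon table gives inclusion as a fraction and was used for overlap only.

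Reads in peaks were summed per gene and divided by median-of-ratios size factors, computed within each protein from genes that none of its libraries lacked. After adding a pseudocount of 1, log2 values went into limma 3.58.1 in R 4.3.3 (eBayes with a trend, two-sided, Benjamini-Hochberg over all genes, threshold 0.05), for genes present in 50% or more of a protein's libraries; the fit was tested on simulated data. Of 19362 gene IDs, 17814 (92.0%) were in the name table. Overlaps needed 1 nt on the same strand. Likeness used genes present in 12 or more libraries and took the 5 closest, of which 1 is not reported here. Alternatives covered scaling, filters, pseudocount, peak minimum, snoRNA-listed intervals, replicate numbers and single libraries. Coordinates stayed in hg19, and sequences came from GENCODE v29. Named were the 2 genes, all genes listed at their intervals, the partners with the 3 largest called changes, and HNRNPA1. Members, lists and tests were chosen with earlier results of these data known. Other steps ran in Python 3.11.15 (scipy 1.17.1, pandas 2.3.3).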

Additional observations from a re-analysis of the deposited data

Results flagged for a closer look

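These differences between proteins were not tested. Every overexpression library lay on one side of its controls for 1 protein and on the other side for another, and the value given is the difference between the 2 log2 changes.

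On whole genes, the U2AF2 change on EIF4A2 minus its SRSF1 change was -7.20. The hnRNP A1 change minus the U2AF2 change was 5.73 on EIF4A2 and 2.65 on EIF4A1, with the hnRNP A1 changes themselves small and not called.

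At single sites, the U2AF2 change minus the SRSF1 change was -8.65 at the SNORA48 site, -4.18 at the SNORD10 site and -3.31 at the interval of ENSG00000207152 in EIF4A1. It was -7.00 at the SNORD2 site, -9.64 at the SNORA81 site and -9.56 at the SNORA63 site in EIF4A2. Sites at 0 in a library make these values depend on the pseudocount of 1.

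The hnRNP A1 change minus the U2AF2 change was 6.81 at chr3:186505580-186505846 and 7.34 at chr3:186506154-186506677 (hg19) in EIF4A2. At the first of these hnRNP A1 gave 92.1 and 113.7 normalised reads with overexpression and 51.2 and 52.0 in controls, and U2AF2 gave 3.42, 0 and 2.49 with overexpression and 176.3, 74.1 and 213.9 in controls.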

How the results depend on the processing

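Signs of the U2AF2 changes held under every alternative run. For EIF4A1 the log2 change was -1.54 with total reads as the scale, -1.98 after quantile normalization, -1.02 with the number of peaks per gene, -1.34 without snoRNA-listed intervals and -3.51 with the minimum per peak scaled to depth, and for EIF4A2 it was -4.88, -5.01, -2.79, -5.52 and -10.90 in that order; under the last setting no EIF4A2 peak was left with overexpression, so that value reflects the pseudocount. The SRSF1 change turned to -0.60 on EIF4A1 and -0.90 on EIF4A2 with the number of peaks per gene, was 0.023 and 1.12 after quantile normalization, and was 0.079 on EIF4A2 without snoRNA-listed intervals. The hnRNP A1 change turned to -0.27 on EIF4A1 and -0.75 on EIF4A2 with the scaled minimum, and on EIF4A2 to -0.11 with total reads and -0.25 after quantile normalization. The cause was not tested. Leaving out 1 library gave, on EIF4A1 and then EIF4A2, 0.18 to 0.53 and 0.02 to 0.11 for hnRNP A1, -2.41 to -2.24 and -6.09 to -5.22 for U2AF2, and 0.19 to 0.78 and 1.33 to 1.77 for SRSF1; a lone hnRNP A1 library left in a condition is assumed to vary like the other condition.

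Genes called for hnRNP A1 numbered 4791, and 0 after quantile normalization (3780 at an unadjusted p under 0.05, limma), 1023 with a peak in every library, 2898 with the scaled minimum and 319 to 7699 without 1 library. For U2AF2 they numbered 5663, 3301 with the number of peaks and 2249 to 6449 without 1 library. For SRSF1 they numbered 466, 86 after quantile normalization, 125 with a peak in every library, 29 with no filter, 111 with a pseudocount of 10 and 2 to 458 without 1 library. With the replicate block SRSF1 had 1 call; replicate numbers did not pair the libraries (correlations of same-numbered deviations from -0.018 to 0.051), and the block gave the members the same log2 changes.

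Mean snoRNA-listed shares became 0 in every group with identical interval ends. With a snoRNA listed in any library they became 24.7% for hnRNP A1 overexpression on EIF4A1, and on EIF4A2 24.3% for hnRNP A1 control, 33.9% and 27.2% for U2AF2 overexpression and control, and 98.5% for SRSF1 overexpression. With ENSG00000207152 they became, on EIF4A1, 61.1% for hnRNP A1 control, 30.8% and 69.4% for U2AF2 overexpression and control, and 90.1% and 48.5% for SRSF1 overexpression and control. By Spearman correlation, 2 of the 5 genes closest to each member were the same. The smallest listed peak equals 13.4 to 14.2 normalised reads in hnRNP A1 overexpression libraries, 10.2 to 17.3 in U2AF2 controls and at most 9.99 in SRSF1 libraries, so lower signals are not resolved there.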
